A study of Danio rerio with 6 samples.

Results

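The 9 genes described here are foxd3, tfap2a, snai2, snai1a, msx1a, msx1b, msx3, zic2a and id3. They encode early transcriptional regulators of the neural crest and the neural plate border. Their probe sets were taken as all those on the array whose single annotated gene symbol was one of the 9, which gave 14 probe sets among 15617. The study set whole zebrafish embryos labelled as prdm1 null mutants (3 arrays, titled prdm1 mutant and named prdm1a in the protocol) against embryos labelled as wild type (3 arrays), all at 25 hours post fertilization (hpf). Embryos were assigned to a genotype by their phenotype, by eye, so any heterozygous embryos that looked normal would be among those labelled as wild type. The allele, the strain and how many embryos went into a sample are not stated in the labels. Nor do the labels tie replicates to separate clutches, so the p-values reflect the spread between these samples alone.

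Neural crest cells arise at the border between the neural plate and the epidermis, leave the dorsal neural tube and form pigment cells, peripheral neurons, glia and much of the face skeleton. Border factors such as the Msx, Zic and Tfap2 proteins act first and are followed by crest specifiers such as Foxd3 and the Snail proteins, and later by genes of migrating crest such as sox10 and crestin. In zebrafish, Prdm1a, a zinc finger transcription factor, is known to act upstream of foxd3 and tfap2a in crest specification. The comparison asks whether transcripts of these early factors differ in level between the mutant and the wild type.

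None of the 9 genes changed past the threshold between prdm1a mutants and wild type at 25 hpf. Only this stage was measured, so the arrays do not show levels of these genes at an earlier one. Fold changes on the log2 scale lay between -0.41 for foxd3, which encodes a forkhead factor that holds crest cells in a multipotent state, and 0.33 for snai2, a zinc finger repressor. In the same arrays crestin, a marker of premigratory and migrating crest, was 3.68-fold lower and sox10, a factor of pigment and glial lineages, 1.93-fold lower in the mutant. The RNA came from whole embryos, so fewer cells of a type and less RNA per cell cannot be told apart.

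The deposited values were probe set intensities on a linear scale, and each was tested on the log2 scale in 1 limma fit over the array. Probe sets in the lowest 30% by mean log2 signal, below a signal of 41.1, were not tested. Of the 14 probe sets 9 were tested, 1 for each gene, and 5 dim ones of snai2, msx3 and zic2a were not. Among the 9 tested, 4 were annotated with a RefSeq transcript of their gene, those of foxd3, tfap2a, msx1a and id3. The tested probe sets of snai2, snai1a, msx1b, msx3 and zic2a were not. Of the 9, 0 passed a Benjamini-Hochberg adjusted p of 0.05 in limma, against 3.39% of all 10851 tested probe sets (1.54% higher in mutants, 1.85% lower). At an unadjusted p under 0.05 (limma) the counts were 0 of 9 and 20.6% of all tested. The arrays of the 2 genotypes did not overlap for 1 of the 9, tfap2a, against 27.0% of all tested. No tool other than limma was run across all genes. The median log2 fold change of the 9 was 0.10, with 5 above 0 and 4 below, and that of all tested probe sets was 0.02. The median size of the change, regardless of sign, was 0.21 for the 9 and 0.25 for all tested.

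No probe set was named prdm1a, so the labels were read against the slow myosin gene smyhc1, a gene known to need prdm1a. Its signal was 910.8, 1025 and 765 in mutants and 6660, 7251 and 7262 in wild type. Of 9 muscle genes on a marker list, 7 were above 0 and 2 below. Past an adjusted p of 0.05 in limma there were 4 higher and 2 lower in mutants, beside 3.39% of all tested probe sets. The summed signal of the 9 was 83318 to 101169 in mutants and 73412 to 75520 in wild type. A sign of RNA quality, the signal at a control gene's 3' end over that at its 5' end, was 26.2 to 38.8 in mutants and 55.4 to 92.4 in wild type for actc1b. For gapdhs it was 3.28 to 7.65 in mutants and 9.16 to 14.5 in wild type. The muscle signal and these ratios did not overlap between genotypes. The control gene actc1b is itself on the muscle list, and its signal was higher in every mutant array (log2 fold change 0.38, limma adjusted p = 0.0558). The change of each of the 9 genes with each ratio as a covariate is given with it. Since each ratio separates the genotypes, these fits cannot tell the ratio and the genotype apart, and their values are descriptions only.

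**Figure D1:**
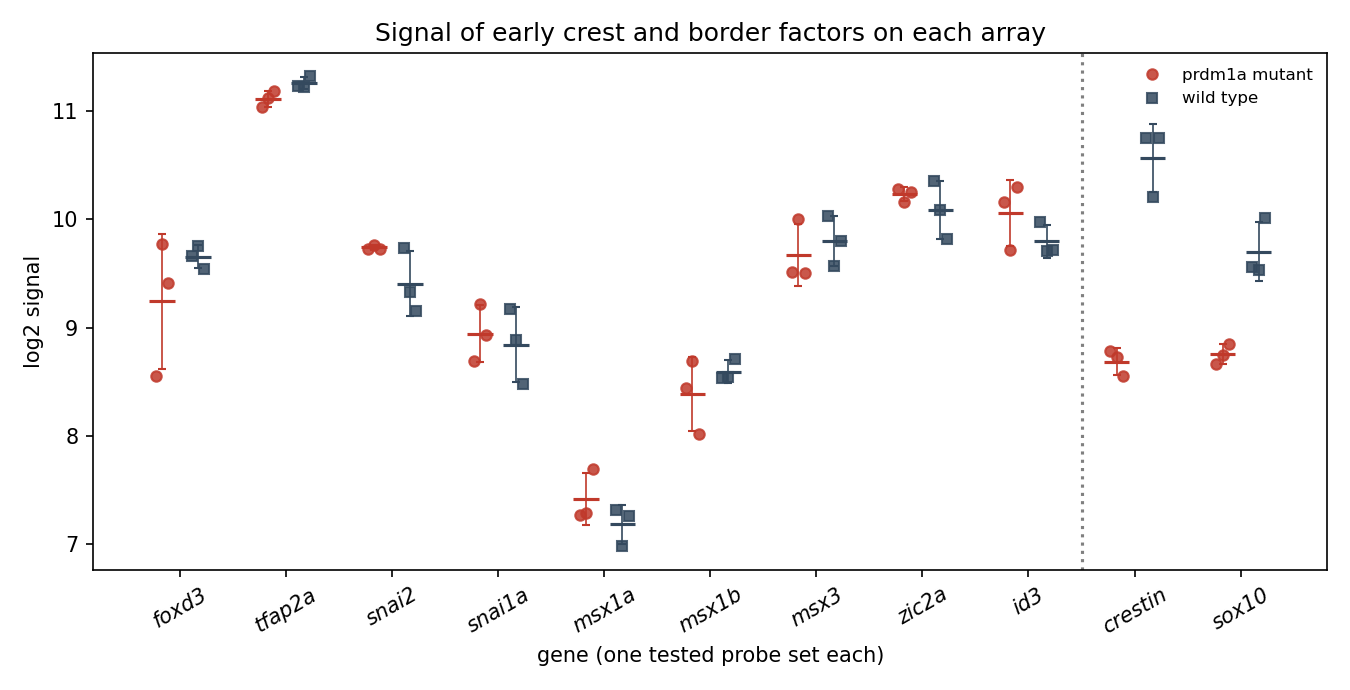
Log2 signal of the tested probe set of each early factor and, right of the dotted line, of crestin and sox10, on the 3 prdm1a mutant arrays (circles) and the 3 wild-type arrays (squares). Short lines are group means and bars 1 SD. The mutant arrays of foxd3 spread over 1.22 log2 units, and only tfap2a among the 9 early factors has groups that do not overlap.

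The foxd3 probe set read 375, 872 and 679 in mutant replicates 1, 2 and 3, and 811, 861 and 744 in wild-type replicates 1, 2 and 3. Mutant replicates 1 and 3 lay below every wild-type array, replicate 1 by far the lower, and mutant replicate 2 lay above all of them. On the log2 scale mutants averaged 9.24 ± 0.62 and wild type 9.65 ± 0.11 (SD, n = 3 each). The fold change on the log2 scale was -0.41 (SE 0.28, 95% interval -1.04 to 0.22), and it did not pass (limma adjusted p = 0.444). The spread among mutants was larger than that of 92.7% of tested probe sets. Without mutant replicate 1 the log2 fold change was -0.06 (limma adjusted p = 0.884), and without mutant replicate 2 it was -0.67 (0.231). Mutant replicate 1 also had the lowest actc1b ratio of the 6 arrays, 26.2. Its gapdhs ratio was 7.08, and the lowest gapdhs ratio was that of mutant replicate 3, at 3.28. With the actc1b ratio as a covariate the foxd3 change was 0.21 (limma adjusted p = 0.913), and with the gapdhs ratio it was -0.56 (0.743).

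For tfap2a, an AP-2 factor of the border, the crest and the epidermis, the probe set read 2091, 2223 and 2319 in mutants and 2402, 2376 and 2549 in wild type. Every mutant array lay below every wild-type array. On the log2 scale mutants averaged 11.11 ± 0.07 and wild type 11.25 ± 0.05 (SD, n = 3 each). The log2 fold change of -0.14 did not pass (limma adjusted p = 0.524, SE 0.12). Its 95% interval of -0.41 to 0.12 was the narrowest of the 9 genes and corresponds to a mutant level between 0.755 and 1.08 times that of the wild type. The tfap2a change was -0.19 with the gapdhs ratio as a covariate and 0.02 with the actc1b ratio.

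The Snail genes encode zinc finger repressors known for their part in epithelial-to-mesenchymal transition, and snai1a is also expressed in mesoderm. The snai2 probe set read 848, 870 and 846 in mutants and 853, 642 and 569 in wild type. The mutant arrays were nearly equal (SD 0.02 log2 units), and only wild-type replicate 1 reached their level. Of the 9 genes snai2 had the smallest adjusted p, with a log2 fold change of 0.33 (SE 0.17, 95% interval -0.06 to 0.73, limma adjusted p = 0.316). Without wild-type replicate 3 it was 0.21 and without wild-type replicate 1 it was 0.50 (limma adjusted p = 0.134), while with the gapdhs and actc1b ratios as a covariate it was 0.17 and -0.05. The 2 dimmer snai2 probe sets read 0.995 to 46.9 over the 6 arrays and were not tested.

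The snai1a probe set read 413, 595 and 487 in mutants and 576, 473 and 356 in wild type. These groups overlapped over most of their range, with a log2 fold change of 0.10 (SE 0.22, 95% interval -0.40 to 0.60, limma adjusted p = 0.834). With 1 array left out it ran from -0.083 (without wild-type replicate 3) to 0.26 (without wild-type replicate 1), and it was also below 0, at -0.035, without mutant replicate 2. The gapdhs and actc1b covariates gave -0.064 and -0.14.

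Msx homeodomain proteins act at the border downstream of bone morphogenetic protein (BMP) signalling, and their genes stay on in the dorsal neural tube and the fins. The msx1a probe set read 154, 156 and 207 in mutants and 159, 126 and 153 in wild type, with only mutant replicate 3 above the wild-type arrays. Its log2 fold change was 0.23 (limma adjusted p = 0.603, SE 0.22), and it was 0.09 without mutant replicate 3 and 0.13 without wild-type replicate 2. It was -0.084 with the gapdhs ratio and 0.41 with the actc1b ratio as a covariate. The msx1b probe set read 348, 414 and 260 in mutants and 370, 372 and 419 in wild type, where mutant replicates 1 and 3 lay below all wild-type arrays. Its log2 fold change was -0.21 (limma adjusted p = 0.612, SE 0.20), and it was -0.03 without mutant replicate 3 and -0.36 without mutant replicate 2. The gapdhs and actc1b covariates gave msx1b values of 0.25 and -0.02. The bright msx3 probe set read 731, 1026 and 725 in mutants and 1044, 759 and 893 in wild type, a log2 fold change of -0.13 (limma adjusted p = 0.755, SE 0.19). With 1 array left out, msx3 ran from -0.29 (without mutant replicate 2) to -0.013 (without wild-type replicate 1). It was at -0.24 without wild-type replicate 2, and at -0.05 and -0.04 without mutant replicates 1 and 3. Its values with the gapdhs and actc1b covariates were 0.0090 and 0.06. The 95% intervals of the 3 genes together ran from -0.67 to 0.73. For msx3 the probe set annotated with the gene's own RefSeq transcript was a dim one that was not tested. It read 51.3, 80.1 and 15.5 in mutants and 37.0, 39.2 and 22.4 in wild type. The groups overlapped there too.

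The zinc finger gene zic2a is expressed at the border and in the dorsal neural tube and forebrain. Its probe set read 1244, 1145 and 1216 in mutants and 1306, 1085 and 903 in wild type. All mutant values lay within the range of the wild type, with a log2 fold change of 0.15 (SE 0.16, 95% interval -0.22 to 0.51, limma adjusted p = 0.657). Without wild-type replicate 3 the zic2a change was 0.01, and without wild-type replicate 1 it was 0.28. It was -0.04 with the gapdhs ratio and -0.32 with the actc1b ratio as a covariate. The dimmer zic2a probe set matched a RefSeq transcript of the gene and read 31.3 to 37.8 in mutants and 25.7 to 37.4 in wild type. It was not tested. The gene next to zic2a in the RefSeq annotation of the GRCz12tu assembly is its family member zic5, whose log2 fold change was -0.0029 (limma adjusted p = 0.993).

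The product of id3 is a helix-loop-helix protein without a DNA-binding region that sequesters bHLH factors, and Id genes are known targets of BMP signalling. The id3 probe set read 1145, 840 and 1260 in mutants and 1004, 834 and 839 in wild type. Mutant replicates 1 and 3 lay above every wild-type array and mutant replicate 2 did not. The log2 fold change was 0.26 (SE 0.18, 95% interval -0.15 to 0.67, limma adjusted p = 0.455). Without mutant replicate 2 it was 0.43 and without mutant replicate 3 it was 0.14. The gapdhs and actc1b covariates gave -0.10 and -0.06.

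**Figure D2:**
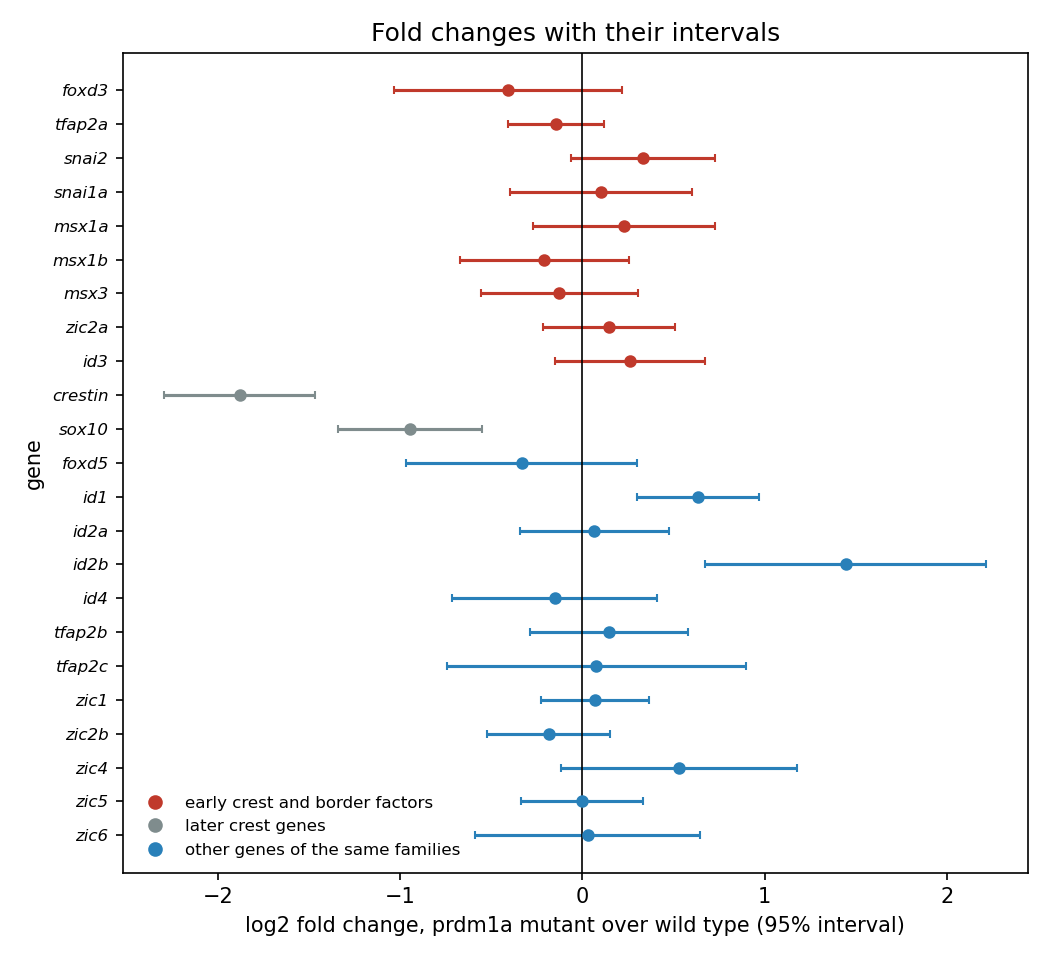
Log2 fold change of prdm1a mutant over wild type with its 95% interval from limma, for the 9 early factors, for crestin and sox10, and for 12 tested genes of the same families (brightest tested probe set each). The intervals of all 9 early factors include 0, while those of crestin, sox10, id1 and id2b do not. Crestin and sox10 passed the adjusted threshold, and id1 and id2b did not. The interval of the other id2b probe set, not drawn, was -0.24 to 0.83.

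The intervals show what sizes of change these arrays could leave unseen. They come from the fit without a covariate and bound the change over the whole embryo. Several of the 9 genes are also expressed outside the crest, so a change confined to crest cells could be larger than these bounds. For 8 of the 9 genes the 95% interval excluded a fall as large as the point value of sox10 (-0.95), and the exception was foxd3. The interval of sox10 itself was -1.34 to -0.55. The same 8 excluded a fall of 1 log2 unit, and all 9 excluded a rise of that size. The widest upper bound was 0.73, for msx1a. No intervals are given for the fits with a 3' over 5' ratio, where the actc1b covariate put zic2a at -0.32 and sox10 at -0.43.

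Within the wild type, replicate 1 read highest for 6 of the 9 genes and replicate 3 lowest for 4, among them snai2, snai1a and zic2a. Replicate 1 had the lowest and replicate 3 the highest 3' over 5' ratio of the wild-type arrays for both control genes. Among mutants, replicate 1 read lowest for 4 of the 9, foxd3, tfap2a, snai1a and msx1a. The part of the ratio in these values was not tested array by array.

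Foxd3 and tfap2a were set against the later crest genes within each array. The signal of crestin was 441, 423 and 375 in mutants and 1720, 1178 and 1715 in wild type, and that of sox10 was 406, 430 and 461 in mutants and 753, 741 and 1032 in wild type. Both genes fell, with log2 fold changes of -1.88 (limma adjusted p = 0.00124, SE 0.18) and -0.95 (limma adjusted p = 0.0227, SE 0.18). With the gapdhs ratio as a covariate crestin was at -1.74 and sox10 at -0.91 (limma adjusted p = 0.0686 and 0.319), and with the actc1b ratio they were at -1.76 and -0.43 (0.142 and 0.605). Neither passed in these fits, while of the 4 values only that of sox10 with the actc1b ratio was under 0.5 times as large on the log2 scale. The sox10 call also ended when any one of the mutant arrays, or wild-type replicate 2, was left out, with log2 fold changes of -0.90 to -1.03 (adjusted p of at most 0.0749).

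The log2 signal of tfap2a over sox10 was 2.36, 2.37 and 2.33 in mutants and 1.67, 1.68 and 1.30 in wild type. The mutant arrays all lay above the wild type, so sox10 was lower relative to tfap2a in every mutant array. That difference of changes was 0.80, and for tfap2a against crestin it was 1.73. For foxd3 against crestin it was 1.47, again with groups apart. Each of the 3 gave an exact two-sided permutation p of 0.1, the smallest that 3 against 3 arrays allow (0.167 after Benjamini-Hochberg adjustment over the 5 differences tested). None could therefore pass 0.05.

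For foxd3 against sox10 the mutant arrays were at -0.12, 1.02 and 0.56 and the wild-type arrays at 0.11, 0.22 and -0.47. The groups overlapped through mutant replicate 1, and the difference of 0.54 gave an exact permutation p of 0.3 (adjusted 0.375). The changes of foxd3 and tfap2a differed by -0.27 (exact permutation p = 0.7, adjusted 0.7).

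**Figure D3:**
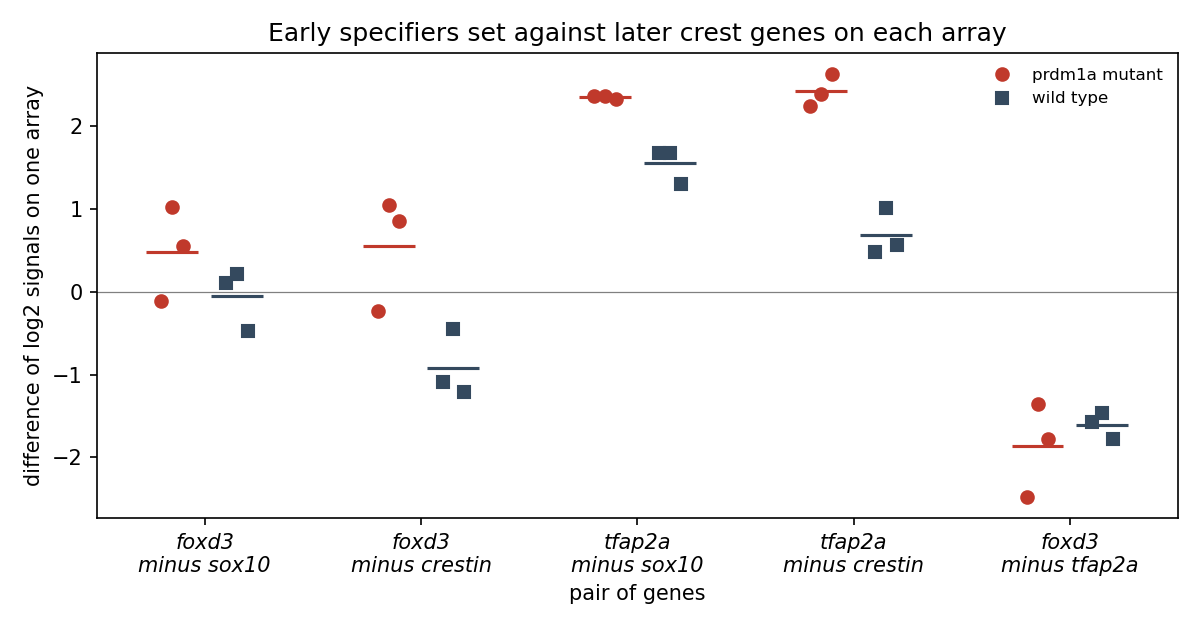
Log2 signal of 1 gene minus that of another on the same array, for 5 pairs of genes, on the 3 prdm1a mutant arrays (circles) and the 3 wild-type arrays (squares), with group means as lines. The vertical distance between the group means is the difference between the 2 genes' changes, largest for tfap2a minus crestin at 1.73. A level on this axis has no meaning across pairs, since probe sets differ in brightness.

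Other genes of the same families were read from a list of 21, of which 16 were on the array and 12 were tested. None of the 12 passed (limma), beside 3.39% of all tested probe sets. At an unadjusted p under 0.05 there were 2, id1 and id2b, beside 20.6% of all tested probe sets, so the count does not set the families apart. Their median log2 fold change was 0.07, beside 0.02 for all tested. The probe sets of foxd2, snai1b, msx2a and msx2b lay below the filter, so no Msx2 gene was tested. The AP-2 genes tfap2b (0.15) and tfap2c (0.08) and the Zic genes zic1 (0.07), zic2b (-0.19), zic5 and zic6 (0.03) had log2 fold changes within 0.2 of 0. Those of zic4 and foxd5 were 0.53 (limma adjusted p = 0.331) and -0.33 (0.545).

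The signal of id1 was 11932, 11965 and 11807 in mutants and 9009, 8212 and 6080 in wild type. Every mutant array lay above every wild-type array, at a log2 fold change of 0.64 (SE 0.15) that just missed the threshold (limma adjusted p = 0.0537). The signal of id2b was 226, 227 and 272 in mutants and 139, 95.7 and 51.9 in wild type, again without overlap, at a log2 fold change of 1.45 (limma adjusted p = 0.0555, SE 0.34). The other id2b probe set, at 171, 128 and 180 in mutants and 116, 154 and 121 in wild type, overlapped between groups (0.29, limma adjusted p = 0.524). It was the brighter of the 2 in wild type, at a mean log2 signal of 7.01 against 6.46, and the dimmer in mutants, at 7.31 against 7.91. The choice of the brightest probe set over all arrays was thus set by the mutant values, and the 1.45 is not a reading chosen independently of the change. The other Id genes, id2a and id4, were at 0.07 and -0.15. With the gapdhs ratio as a covariate id1 was at 0.48 and id2b at 0.83 (limma adjusted p = 0.540 and 0.613), and with the actc1b ratio at 0.15 and 0.38 (limma adjusted p = 0.837 and 0.830).

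A wider list of 38 border and crest factors, which also holds crestin and sox10, had 26 genes on the array and 21 tested. Crestin and sox10 were the 2 that passed, both lower (limma), and 19 did not, beside 3.39% of all tested probe sets that passed. The list was chosen with earlier results of these data known, so this count is not independent of them. The median log2 fold change was -0.08, with 8 above 0 and 13 below. Among the others, values ran from -0.56 for the cadherin gene cdh11 to 0.49 for the preplacodal homeobox gene dlx3b (limma adjusted p = 0.433 and 0.382). Factors that act beside Foxd3 and Tfap2a in early crest included sox9b at -0.05 (limma interval -0.50 to 0.39) and twist1a at -0.06 (-1.18 to 1.06). They also included mycn at -0.13 (-0.43 to 0.16) and zeb2a at -0.13 (-0.43 to 0.18). The twist1a interval is too wide to show that its level was unchanged. The border genes pax3a and pax7a and the crest genes ets1, sox8b and sox9a lay below the filter and were not tested.

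Several of the 9 genes are also expressed outside the crest, in epidermis, neural tube or mesoderm, and markers of those tissues were read beside them. Of 9 epidermal genes only krt17 passed (limma), lower in the mutant, beside 3.39% of all tested probe sets. Of the 9, 7 were above 0 (median log2 fold change 0.22). The genotypes did not overlap for 5 of the 9, beside 27.0% of all tested. These were krt17 and, higher in mutants, krt4, krt8, krt18a.1 and tp63. The summed signal of the list was 51987 to 58309 in mutants and 50556 to 57387 in wild type. It includes krt17, at 1567, 2397 and 1834 in mutants and 7464, 7783 and 6501 in wild type. The like sums therefore do not mean that the rest of the list was alike. None of 11 neural genes passed (limma), beside 3.39% of all tested probe sets, and 4 were above 0 and 7 below. Values ran from -0.66 for stmn2a to 0.81 for fabp7a (limma adjusted p = 0.124 and 0.130). The genotypes did not overlap for 3 of the 11, sox2, gap43 and stmn2a, all lower in mutants, beside 27.0% of all tested. The summed neural signal, 19644 to 24227 in mutants and 18670 to 21515 in wild type, does not show these opposite changes. None of 4 tested genes of paraxial mesoderm passed (limma), where 3 were below 0 and the median log2 fold change was -0.43. Over the 9 paraxial mesoderm genes on the array the summed signal was 951 to 1493 in mutants and 1353 to 1647 in wild type. Of 7 dorsal neural tube genes on the array only gdf6a (-0.01) and bmp6 (0.05) were bright enough to test, and neither passed. Of 5 tested genes on an endothelial list, which also holds the blood gene gata1a, 3 were above 0 and 2 below. Only fli1 passed (limma), higher in the mutant, beside 3.39% of all tested probe sets. The vessel gene kdrl was lower in every mutant array (364, 403 and 397 against 429, 527 and 526, log2 fold change -0.34). For gata1a the log2 fold change was 0.75 (limma adjusted p = 0.132). The summed signal of the list was 1214 to 1319 in mutants and 972 to 1166 in wild type. It includes gata1a, at 278, 168 and 240 in mutants and 118, 155 and 128 in wild type. The gap between these sums therefore does not measure endothelium alone. In mouse, Id3 is also expressed in endothelium, and the part of endothelial signal in the id3 value was not tested.

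**Figure D4:**
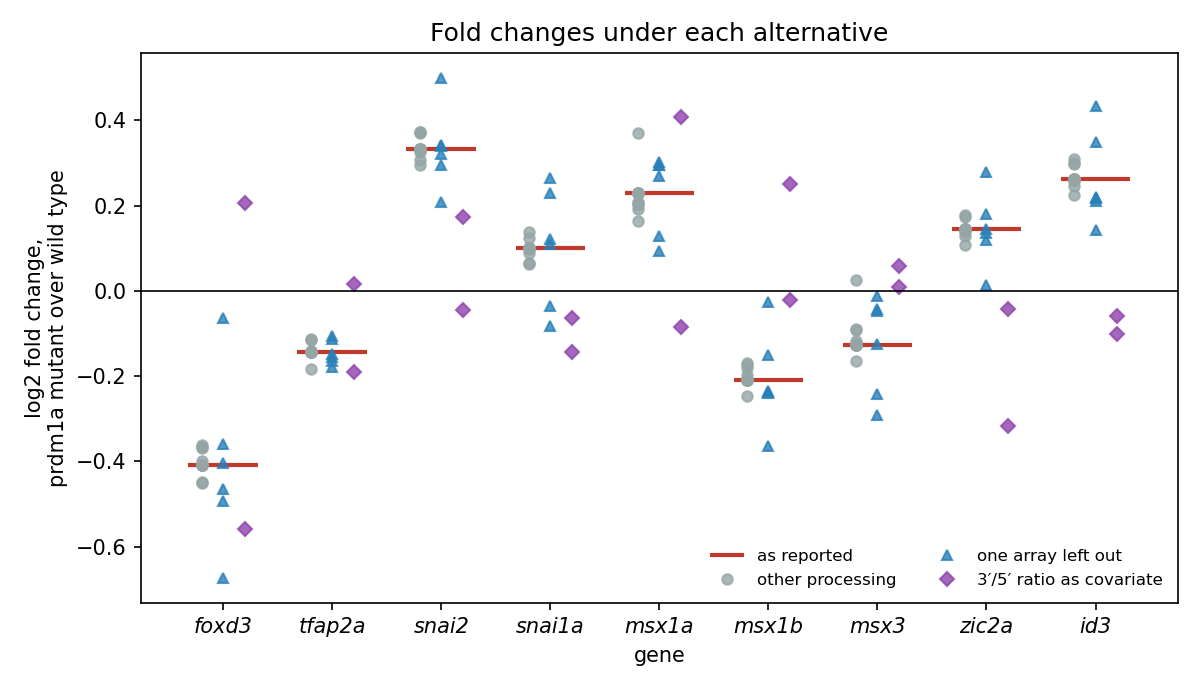
Log2 fold change of prdm1a mutant over wild type for each early factor as reported (red lines) and under 19 alternatives: other processing (grey circles), 1 array left out (blue triangles) and a 3' over 5' ratio as covariate (purple diamonds). Foxd3 runs from -0.67 to 0.21, and every gene crosses 0 under at least 1 alternative.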

How the data were processed

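The authors deposited linear intensities per probe set. MAS5 is the tool that the submitters' processing notes name, without a version, a scaling target or detection calls. Per the labels' protocols, Trizol RNA was depleted of ribosomal RNA before cDNA amplification and biotin labelling. The mean signal after trimming was 500.1 on every array, so a common scaling preceded deposit, and array medians were 132 to 148. The number of arrays limits the precision, with a median SE of 0.222 for a log2 fold change.

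Of 15617 probe sets, a platform annotation gave 10802 a single symbol, 135 several and 4680 none. After 115 control probe sets were set aside, intensities were log2-transformed, the lowest 30% (4651) were left out, and 10851 entered one fit in limma 3.58.1 (R 4.3.3) with genotype as the only term and a variance trend in eBayes, with Benjamini-Hochberg adjustment over all of them. A list gene with several probe sets was read from its brightest tested one. Differences between 2 genes' changes used exact permutation over arrays. The fit was tested on simulated data. The 9 genes, the lists and the tests were chosen with earlier results of these data known. Named genes are the 9, crestin, sox10 and smyhc1, and from each of the family and border lists those past the threshold or, where none passed, the 2 with the smallest p. Other genes of these lists are named with values to show ranges and families, some chosen after their values were seen. Alternatives were other normalizations, offsets, filters, variance models, array weights, a replicate block, each array left out, and the 3' over 5' ratio of either control gene as a covariate. Protein and promoter sequences were not used here. Figures were drawn with matplotlib 3.10.9.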

Additional observations from a re-analysis of the deposited data

How the results depend on the processing

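None of the 9 genes passed in limma under any of the 19 alternatives, and the smallest adjusted p among these 171 values was 0.108. Sign changes of values that never passed were ignored. The count over all probe sets, 368, was 1416 with array weights, 44 with the gapdhs ratio and 26 with the actc1b ratio as a covariate, and 108 to 460 with 1 array left out. The median log2 fold change of the 9, 0.10, was -0.064 with the gapdhs ratio as a covariate and -0.083 to 0.26 with 1 array left out, so its sign rests on single arrays. The differences between changes kept their sign under all 12 alternatives run for them except foxd3 against tfap2a, which was 0.04 without mutant replicate 1. These 12 did not include a 3' over 5' ratio as a covariate. In limma with the actc1b ratio foxd3 was at 0.21, above tfap2a at 0.02, and sox10 was at -0.43. How far the differences hold under these covariates was not tested. Reading the differences from a mean over probe sets was not possible, since each of the 4 genes has 1. In limma id1 passed under 5 of 19 alternatives and id2b under 5 (adjusted p down to 0.0109 and 0.00936, both with array weights). Same-numbered arrays correlated at 0.06, 0.05 and -0.07 in their deviations, and different-numbered arrays at -0.12 to 0.07. These values show no pairing, but with 3 arrays per group they cannot exclude a shared clutch or day. With the replicate block 260 probe sets and 0 of the 9 genes passed, the foxd3 change kept its value of -0.41 (limma adjusted p = 0.400), and the difference of tfap2a and crestin, 1.73, had an exact sign-flip p of 0.25, the smallest that 3 pairs allow. Without detection calls, dim probe sets cannot be told from background.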
